A study of Rattus norvegicus with 2 samples.

Results

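The ion channels and channel-associated proteins of rat microglial cells were described on a pair of Affymetrix arrays, 1 hybridised with RNA from cells kept for 3 h without oxygen and glucose (oxygen-glucose deprivation, OGD) and 1 with RNA from resting cells that had no exposure. OGD withholds oxygen and glucose from a culture and serves as a model of ischaemia. Both cultures were microglial cells of the Sprague Dawley rat, grown in the same medium with serum. The labels give neither the age of the animals nor how the cells were isolated, and 1 culture stands for each condition. The members were 244 of the 20826 probe sets that name a single gene, taken by gene symbol. The rule took symbols beginning with Kcn, Cacn, Clcn, Clic, Trpc, Trpm, Trpv, Hcn, Asic, Orai or Stim. It also took Scn followed by a number and a or b, Hvcn1 and the Vdac genes. The 244 probe sets stood for 156 genes of 14217, of which 101 had a single probe set and 55 had more. The symbols chose these members, and their values were not used. Trpc4ap, an adaptor of a ubiquitin ligase, and Stimate, a regulator of STIM proteins, came in by their names although they form no channel.

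Microglia are the resident macrophages of the brain, and their ion channels set the membrane potential, the entry of calcium and the volume of the cell. Potassium channels hold the membrane potential negative and so keep the driving force for calcium, which enters through store-operated and TRP channels. STIM proteins sense the calcium of the endoplasmic reticulum and open ORAI channels in the plasma membrane when that store empties. Chloride channels act in volume control and in the acidification of endosomes and lysosomes, and the VDAC proteins pass metabolites through the outer mitochondrial membrane.

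The deposited values were linear intensities, 1 per probe set and array, and the median of all probe sets other than array controls was 19.7 on the OGD array and 19.6 on the resting array. This median served as the floor of measurement, and a value under it was set to it before a difference was taken. Differences are log2 OGD minus log2 resting. With 1 array per group there are no replicates, so no difference carries a test, an error across cultures or a p-value, and all values describe these 2 arrays. The spread between probe sets of the same gene is the only error that could be estimated. Brightness depends on the probes as well as on the RNA, so the level of one gene is not set against that of another.

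The label of the cells was checked against 18 markers of microglia and macrophages, of which 16 had a probe set that names them alone and 15 were above the median on both arrays. Trem2, a receptor of myeloid cells, had intensities of 582.6 on the OGD array and 604.2 on the resting array, and Cd68, a lysosomal protein of macrophages, had 359.7 and 370.7. Csf1r, the receptor for the growth factor that microglia depend on, was at 19.3 on the OGD array, under the median, and at 21.9 on the resting array. Other markers of microglia were also dim: in the same order of arrays, P2ry12 had 30.6 and 36.6 in its brighter probe set, Cx3cr1 had 29.9 and 31.6 and Tmem119 had 23.1 and 23.3. Of the 17 probe sets of this list above the median on both arrays, 16 were lower on the OGD array and 1 was higher (15 and 2 after quantile or loess scaling). Among all 11594 such probe sets naming 1 gene, 5840 were lower and 5024 were higher. The median difference of the list was -0.09 as deposited. Its brightest probe sets had a summed intensity of 1767 on the OGD array against 1837 on the resting array. Of 8 astrocyte genes 3 were above the median on both arrays, where Gfap had 36.9 on the OGD array and 27.4 on the resting array and Slc1a2 had 32.0 and 23.8, while Aldoc had 118.6 and 120.9. The summed intensity of the brightest astrocyte probe sets was 237.6 on the OGD array and 220.4 on the resting array. Neuronal markers summed to 209.1 and 195.1 and oligodendrocyte markers to 199.6 and 195.6, fibroblast markers to 214.0 and 223.7 and endothelial markers to 92.6 and 79.8, in the same order of arrays. All these sums used deposited values without the floor, and 8 of 10 neuronal and 4 of 5 endothelial genes were under the median on both arrays. Single genes carried much of some sums, such as Pdgfrb of the fibroblasts with 104.2 and 117.5 and Vwf of the endothelium with 56.4 and 46.3. The part of the markers of all these cell types in the differences of the channels was not tested. In such bulk RNA fewer cells of a type and less RNA per cell cannot be told apart.

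Most ion channel probe sets were dim. On both arrays 105 of the 244 lay above the array median, which is 43.0% against 55.7% of all 20826 probe sets naming 1 gene. A further 8 were above it on 1 array, so that 113 were above it on at least 1, which is 46.3% against 58.7% of all. The other 131 were above it on neither. By gene, 82 of the 156 had a probe set above the median on both arrays, and 68 had none above it on either array. Over all 14217 genes these counts were 9169 and 4636. The gene counts given for families and lists elsewhere are to be read beside these counts over all genes. The probe sets nearest the median from above belonged to Clcn6 (19.7 on the OGD array, 20.7 on the resting array), Kcns3 (19.8 and 20.5) and Kcnk13 (23.8 and 20.2). Those nearest from below belonged to Kcns1 (17.4 and 19.3), Kcnq3 (19.3 and 16.7) and the dimmer probe set of Trpm7 (19.1 and 13.9).

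**Figure D1:**
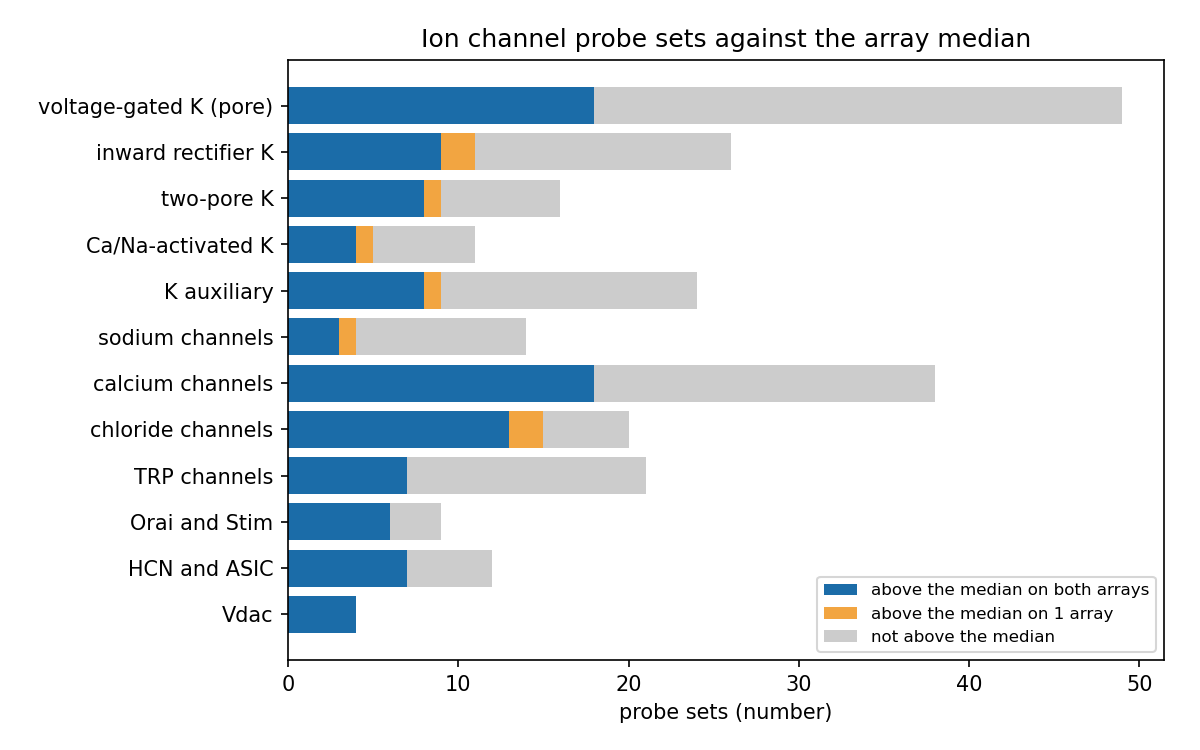
Number of ion channel probe sets in each family (horizontal axis) that lay above the array median on both arrays, on 1 array or on neither, as stacked bars. All 4 Vdac probe sets and 13 of 20 chloride channel probe sets were above it on both arrays, against 3 of 14 for sodium channels.

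The families differed in how many of their probe sets could be measured. All 4 probe sets of the Vdac genes, 13 of 20 of the chloride channels, 6 of 9 of the store-operated entry genes and 7 of 12 of the HCN and acid-sensing channels were above the median on both arrays. The share was lower among the voltage-gated potassium channel pore subunits, with 18 of 49, the inward rectifiers, with 9 of 26, the TRP channels, with 7 of 21, and the potassium channel auxiliary proteins, with 8 of 24. Sodium channels had 3 of 14, calcium channels 18 of 38, the K2P (tandem pore domain) potassium channels 8 of 16 and the calcium- or sodium-activated potassium channels 4 of 11.

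No ion channel probe set differed by 1.5-fold, the threshold named in the design text of the series, in either direction. Of the 113 probe sets above the median on at least 1 array, 0 were higher and 0 were lower by that much, beside 0.0899% higher and 0.0736% lower among the 12231 such probe sets naming any gene. At 1.2-fold 4 were higher and 7 were lower on the OGD array, which is 3.54% and 6.19% of the 113, beside backgrounds of 3.89% and 4.21%. With a floor at the 70th percentile, which leaves 59 channel probe sets, 3 were higher and 3 were lower, 5.08% each, beside backgrounds of 2.50% and 2.88%. At the median floor the shares were near the background, and nothing is read from counts this small. Of the 105 probe sets above the median on both arrays 51 were higher, 46 were lower and 8 had the same value to all digits on both arrays. The median difference was 0 over the channels and -0.0031 over all probe sets naming 1 gene, each taken over those above the median on at least 1 array. The SD of the differences across probe sets above the median on both arrays was 0.16 for the channels and 0.15 for all.

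**Figure D2:**
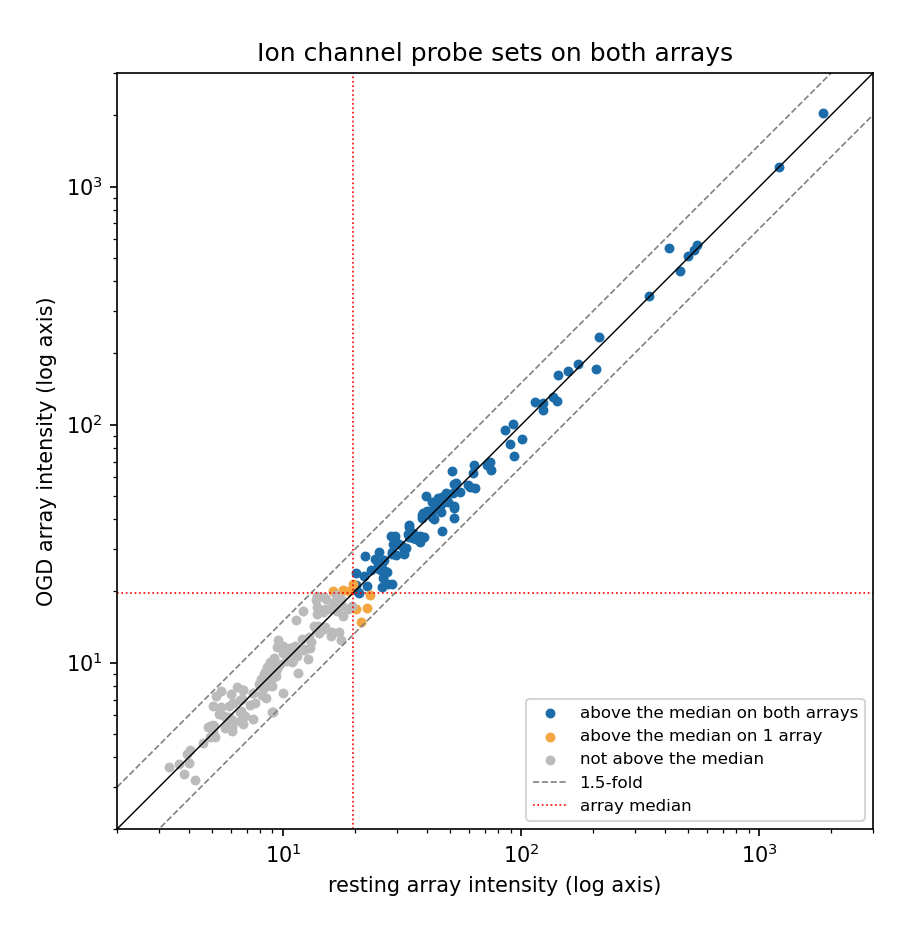
Intensity of each of the 244 ion channel probe sets on the OGD array (vertical, log axis) against the resting array (horizontal, log axis), with the line of equality, dashed lines at 1.5-fold and dotted lines at the array medians of 19.7 and 19.6. Every probe set above the median on both arrays lies inside the dashed lines.

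The 11 probe sets past 1.2-fold belonged to 11 genes. Trpm7, a cation channel fused to a protein kinase that carries magnesium and calcium, had an intensity of 550.0 on the OGD array and 416.5 on the resting array, which was 1.32-fold higher (log2 difference 0.40). Clcn2, a chloride channel of the plasma membrane, had 28.1 on the OGD array and 21.9 on the resting array (0.36). Clic4, a chloride intracellular channel protein that moves between compartments, had 50.2 and 39.9 (0.33). Cacna1b, the pore subunit of N-type calcium channels, had 63.7 and 51.2 (0.32). These 4 were the probe sets higher on the OGD array.

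On the lower side, Kcnt1, a sodium-activated potassium channel, had 21.4 on the OGD array and 28.6 on the resting array, which was 1.33-fold lower (log2 difference -0.41). Scn11a, a sodium channel pore subunit of sensory neurons, had 40.4 and 52.3 (-0.37). Orai2, a pore subunit of store-operated calcium entry, had 21.3 and 27.6 (-0.37). Kcnk6, a K2P potassium channel, had 35.8 on the OGD array and 46.4 on the resting array (-0.37). Clcn6, an endosomal chloride and proton exchanger, had 73.6 and 93.3 (-0.34). Cacna1h, the pore subunit of a T-type calcium channel, had 20.8 and 26.1 (-0.33), and Cacna1f, an L-type pore subunit best known from the retina, had 170.7 and 206.7 (-0.28). Mean intensity was under 50 for 7 of the 11, and Kcnt1, Orai2 and Cacna1h lay on the OGD array just above its median of 19.7.

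**Figure D3:**
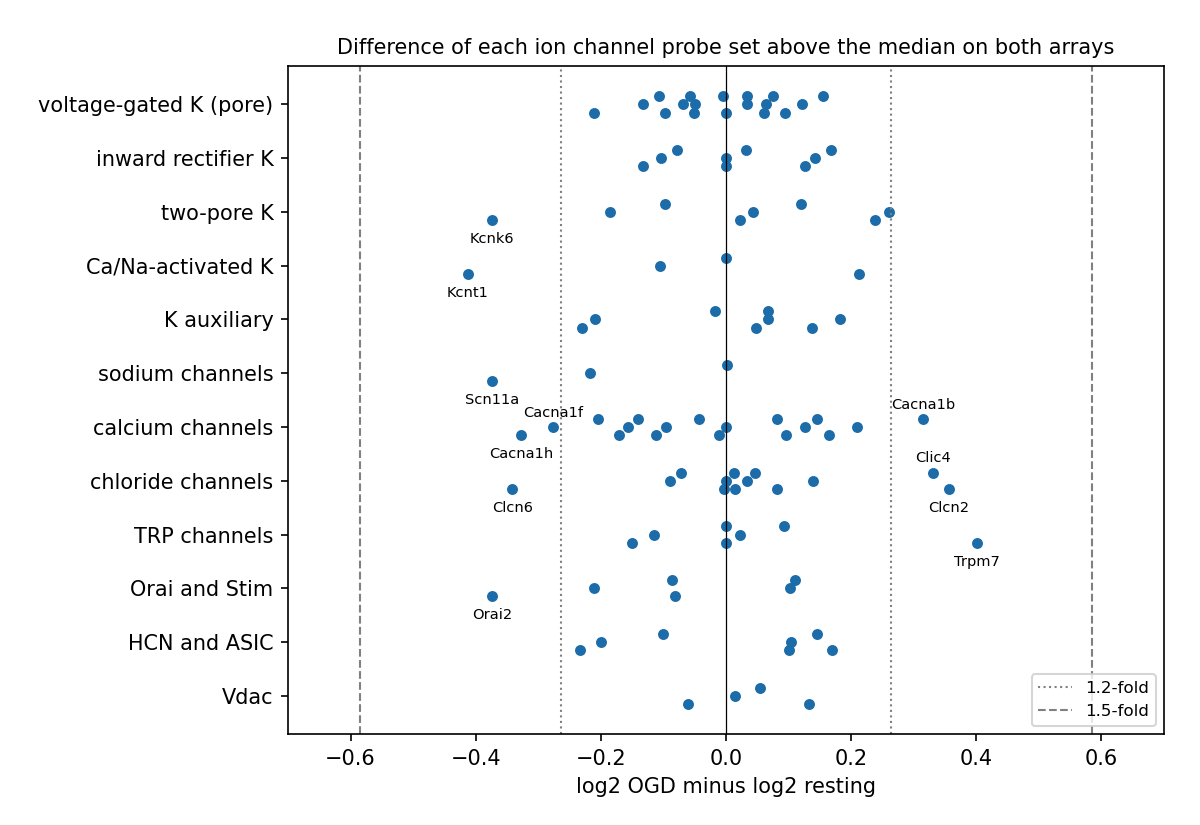
Log2 OGD minus log2 resting (horizontal axis) of the 105 ion channel probe sets above the median on both arrays, 1 point per probe set, by family, with dotted lines at 1.2-fold and dashed lines at 1.5-fold. The extremes are Trpm7 at 0.40 and Kcnt1 at -0.41, and no point reaches the dashed lines.

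Few of these 11 differences had a second probe set to set beside them. Another probe set of the same gene was above the median on both arrays for 4 of the genes, and in 0 of these 4 was it past 1.2-fold. The other probe set of Cacna1b had 37.8 on the OGD array and 33.7 on the resting array (log2 difference 0.17), and that of Clcn6 had 19.7 and 20.7 (-0.07). Of the other 3 of Clic4, 2 were above it on both arrays, with 31.9 and 30.1 (0.08) and with 31.1 on both, and the remaining one was above it on the OGD array only. A second probe set of Kcnt1 had 51.7 on both arrays and the remaining one was under the median. For 4 genes the sole other probe set was not above the median, among them the one of Trpm7 at 19.1 on the OGD array and 13.9 on the resting array, which is given no fold. For Scn11a, Clcn2 and Cacna1f there was 1 probe set only.

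The promoters of the 2 genes furthest to each side are shown so that the sequence in front of them can be read beside their differences. They are the 250 bases before the gene start from RefSeq (GRCr8), 5′ to 3′ on the gene's strand, and capitals mark the motifs ACGTG and GCGTG, the core letters that the hypoxia-inducible factor binds, and TATAAA, the TATA box, on either strand.
Trpm7 (chr3:134588114-134588363, minus strand): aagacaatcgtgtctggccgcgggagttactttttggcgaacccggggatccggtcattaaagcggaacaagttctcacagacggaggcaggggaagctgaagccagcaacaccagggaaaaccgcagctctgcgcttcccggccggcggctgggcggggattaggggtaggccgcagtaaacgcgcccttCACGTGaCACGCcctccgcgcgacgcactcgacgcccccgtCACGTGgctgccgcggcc
Clcn2 (chr11:93702344-93702593, plus strand): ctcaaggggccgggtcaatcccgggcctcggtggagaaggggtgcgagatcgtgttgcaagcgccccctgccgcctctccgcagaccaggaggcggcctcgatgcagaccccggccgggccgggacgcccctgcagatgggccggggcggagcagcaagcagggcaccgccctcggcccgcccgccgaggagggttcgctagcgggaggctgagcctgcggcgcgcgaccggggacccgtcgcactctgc
Kcnt1 (chr3:29081089-29081338, plus strand): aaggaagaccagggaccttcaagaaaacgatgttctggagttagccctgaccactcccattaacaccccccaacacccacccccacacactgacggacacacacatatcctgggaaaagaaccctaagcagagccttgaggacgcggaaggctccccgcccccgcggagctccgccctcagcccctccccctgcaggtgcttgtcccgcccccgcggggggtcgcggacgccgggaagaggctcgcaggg
Scn11a (chr8:128444719-128444968, minus strand): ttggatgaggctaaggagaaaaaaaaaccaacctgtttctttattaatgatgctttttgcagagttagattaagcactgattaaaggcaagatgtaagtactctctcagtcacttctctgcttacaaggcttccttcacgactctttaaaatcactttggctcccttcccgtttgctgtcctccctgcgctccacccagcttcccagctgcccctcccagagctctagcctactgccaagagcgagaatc
The Trpm7 promoter held ACGTG at 4 positions when both strands are read, where each palindrome CACGTG counts on both strands, and GCGTG at 1. The windows of Clcn2, Kcnt1 and Scn11a held none of these motifs. Kcnt1 has another start, whose window (chr3:29095846-29096095, plus strand) is not printed and held none of them either. Promoters of 115 of the 156 member genes were matched by gene ID, 128 windows in all since a gene can have several starts. ACGTG or GCGTG was found in 46.1% of these windows and in 36.7% of all 33469, at a median GC content of 61.0% and 51.2%. Among the channels, the share was 54.8% of 62 windows of genes above the median on both arrays and 37.9% of 66 windows of the other genes, with a median GC content of 64.6% and 58.8%. TATAAA was in 6.25% of the channel windows and in 12.9% of all. A match is a description of letters, and the part of GC content in these shares was not tested.

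Voltage-gated potassium channel pore subunits, which repolarise the membrane, had 16 of 31 genes above the median on both arrays and none past 1.2-fold. Kcnq5, an M-current channel, had the largest difference of the family, and its probe sets above the median opposed each other. One had 94.6 on the OGD array and 85.0 on the resting array (0.15), the other 22.7 and 26.3 (-0.21). The remaining probe set of Kcnq5 was at 3.42 and 3.84, under the median. Kcnq1, a partner of KCNE subunits, had 24.3 and 26.7 (-0.13), Kcna1, a Shaker-type delayed rectifier, had 43.5 and 40.0 (0.12), and Kcns2, a silent subunit, had 20.9 and 22.5 (-0.11). Kcnh3, an Elk-type channel, had 130.8 and 136.1 (-0.06). Kcnc2, a fast Shaw-type channel, had 51.5 and 48.2 (0.09) in the 1 of its 6 probe sets that was above the median.

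Of the 8 potassium channels on a list of channels described in microglia, Kcna3, Kcna5, Kcnj2, Kcnn4 and Kcnma1 were under the median on both arrays, while Kcnk6 and Kcnk13 were above it on both and Kcnn3 on 1. Kcna3, the delayed rectifier of activated microglia and T cells, was at 7.48 on both arrays, and Kcna5, a related delayed rectifier, was at 8.28 on both. Kcnj2, the inward rectifier of resting microglia, was at 12.8 on both. Kcnn4, the intermediate-conductance calcium-activated channel, was at 6.96 on the OGD array and 6.55 on the resting array. Kcnma1, the large-conductance calcium-activated channel, had 3 probe sets at 5.18 to 16.8 on the OGD array and 6.10 to 15.2 on the resting array. No fold is given for those under the median, and a dim probe set does not show that the channel was missing from the cells. That list held 26 channels of all kinds. Of the 24 with a probe set of their own, 14 were above the median on both arrays, 1 on 1 array and 9 on neither. Hvcn1 and Trpm2 had no probe set naming them alone.

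Inward rectifiers, which set the resting potential, had 7 of 15 genes above the median on both arrays. Kcnj5, a G-protein-gated subunit, had 47.3 on the OGD array and 42.1 on the resting array (log2 difference 0.17) in one probe set and 33.3 and 35.2 (-0.08) in the other. Kcnj11, the pore of ATP-sensitive potassium channels, which open when ATP falls, had 42.7 and 38.7 (0.14) in one and 30.4 and 32.7 (-0.10) in another. The remaining probe set of Kcnj11 was at 11.7 and 11.2, under the median. Both Kcnj5 and Kcnj11 thus had measured probe sets on either side of 0. Kcnj13 had 41.6 and 38.1 (0.13), Kcnj4 had 33.0 and 36.2 (-0.13), and Kcnj14 had 47.6 and 46.6 (0.03). Kcnj3 had 28.6 on both arrays in the only one of its probe sets above the median, and a probe set of Kcnj6 had 25.1 on both. Kcnj15 was above the median on the OGD array only, with 21.4 against 19.6, which made it at least 1.09-fold higher. Another probe set of Kcnj6 was above the median on the resting array only, with 19.2 on the OGD array and 23.2 on the resting array, at least 1.18-fold lower. The remaining ones of Kcnj6 were under it on both.

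The K2P channels, which carry background potassium currents, had 7 of 11 genes above the median on both arrays. Kcnk13, described in microglia as a tonically active channel, had 23.8 on the OGD array and 20.2 on the resting array (log2 difference 0.24), close to the median, in its sole probe set. Its nearest relative Kcnk12 had 34.0 and 28.4 (0.26). Kcnk5 had 24.0 and 27.3 (-0.19), and Kcnk2, a channel opened by stretch, had 115.7 and 123.8 (-0.10) in one probe set. The other probe set of Kcnk2 was at 7.58 and 5.48, under the median. The mean of both probe sets used these values without the floor and turned the direction, to 0.19. Kcnk1, a weakly conducting member, was above the median on the OGD array only, with 20.01 against 16.2, at least 1.02-fold higher. Both measured probe sets of Kcnk3, an acid-sensitive channel, were higher on the OGD array, with 100.2 and 92.2 (0.12) and with 43.2 and 41.9 (0.04). Kcnk6 above, at -0.37, was the member of this family furthest from 0, and its other probe set was at 5.95 and 5.64, under the median.

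Calcium- or sodium-activated potassium channels had 3 of 7 genes above the median on both arrays, namely Kcnt1, Kcnmb4 and Kcnn1. Kcnmb4, a beta subunit of large-conductance channels, had 29.2 on the OGD array and 25.2 on the resting array (log2 difference 0.21), and Kcnn1, a small-conductance channel, had 55.5 and 59.8 (-0.11). Kcnn3, another small-conductance channel, was above the median on the OGD array only, with 20.3 against 17.8, at least 1.03-fold higher. Among the potassium channel auxiliary proteins, Kcne3, a single-pass subunit, had 44.6 and 52.3 (-0.23) in one probe set. The other probe set of Kcne3 was at 17.8 and 16.2, under the median. Kcnip3, a calcium-binding protein that also acts as a transcriptional repressor, was higher in both probe sets, with 160.9 and 141.8 (0.18) and with 34.8 and 33.2 (0.07). Kcnab2, a cytoplasmic beta subunit, had 124.9 and 113.6 (0.14) in one probe set and 64.3 and 74.4 (-0.21) in another. Kcnab1 had 46.4 and 44.3 (0.07), and Kcnab3 was above the median on the resting array only, with 14.8 on the OGD array and 21.2 on the resting array, at least 1.08-fold lower.

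Sodium channels had 3 of 12 genes above the median on both arrays. Beside Scn11a these were Scn10a, another pore subunit of sensory neurons, with 45.4 on both arrays (log2 difference 0.00086), and the beta subunit Scn3b, with 32.2 on the OGD array and 37.4 on the resting array (-0.22). Scn8a, the pore subunit described in activated microglia, was at 8.82 and 9.29, under the median on both arrays. Scn2b, another beta subunit, was above the median on the resting array only, with 17.0 on the OGD array and 22.5 on the resting array, at least 1.15-fold lower.

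Calcium channels had 14 of 24 genes above the median on both arrays, 8 of them among the 10 Cacna1 pore subunits. Cacna1b, Cacna1h and Cacna1f were past 1.2-fold, 1 higher and 2 lower. Cacna1a, the P/Q-type pore subunit, had 83.1 on the OGD array and 89.7 on the resting array (log2 difference -0.11) in 1 of its 5 probe sets, and the other 4 were under the median. The L-type subunit Cacna1d had 25.2 on both arrays in 1 of 3 probe sets, and Cacna1c was at 13.5 and 17.1 in the brighter of its 2, under the median. Cacna1i, a T-type pore subunit, was lower in both probe sets, with 45.4 and 52.3 (-0.20) and with 41.0 and 42.3 (-0.04). Among the Cacng subunits, which also act as partners of glutamate receptors, Cacng7 had 34.2 and 29.6 (0.21). Cacng2 had 126.1 and 140.5 (-0.16) in one probe set and 37.3 and 33.7 (0.15) in the other.

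Chloride channels had 7 of 12 genes above the median on both arrays. Clcn3, an endosomal exchanger linked to volume-activated chloride currents, was measured by 4 probe sets, which had 1211, 566.5, 347.7 and 67.5 on the OGD array and 1213, 548.6, 344.7 and 71.8 on the resting array. Their differences were -0.0033, 0.046, 0.013 and -0.089, and the first of these turned to 0.0059, 0.046 and 0.031 after centring, quantile and loess scaling. Clic1, the chloride intracellular channel protein described in microglia stimulated with amyloid peptide, had 233.6 on the OGD array and 212.2 on the resting array (0.14) in its sole probe set. Clcn7, the chloride and proton exchanger of lysosomes, was above the median on the resting array only, with 16.8 on the OGD array and 20.1 on the resting array, at least 1.02-fold lower.

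The TRP channels, cation channels gated by temperature, lipids or stretch, had 6 genes besides Trpc4ap above the median on both arrays. Trpm7 was the furthest from 0, as given above, while Trpm4, a channel opened by calcium, was at 10.4 and 12.7, under the median. Trpv2, a channel of macrophage phagocytosis, had 123.6 on both arrays to all digits. Trpv5 had 47.1 on both in one probe set, and its other was under the median. Trpv6, the epithelial calcium channel related to Trpv5, had 29.8 on the OGD array and 32.2 on the resting array (log2 difference -0.12). Trpc1 had 67.7 and 63.5 (0.09) and Trpc4 had 54.6 and 60.6 (-0.15). Trpv4, a channel opened by swelling, was at 13.8 and 14.7, under the median. Trpc4ap, which is no channel, had 509.7 and 501.7 (0.02).

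The genes of store-operated calcium entry pointed both ways. Stim1, the calcium sensor of the endoplasmic reticulum, was lower on the OGD array in all 3 probe sets, with 87.0 against 100.6 (log2 difference -0.21), 69.8 against 73.8 (-0.08) and 51.9 against 55.1 (-0.09). Its relative Stim2 had 56.3 and 52.1 (0.11). Orai1, the main pore subunit, had 56.8 on the OGD array and 52.9 on the resting array (0.10), against -0.37 for Orai2. Orai3 was at 13.0 and 15.8, under the median. Among the 18 genes of the module with at least 2 probe sets above the median on both arrays, Stim1 was 1 of 4 with all of them lower, and its mean difference of -0.13 ± 0.074 (SD between 3 probe sets) covers noise between probe sets and no spread between cultures.

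Of the HCN channels, which carry a cation current activated by hyperpolarisation, all 3 genes measured were above the median on both arrays. Hcn2 had 167.9 on the OGD array and 156.3 on the resting array (log2 difference 0.10), Hcn3 had 54.2 and 63.7 (-0.23) and Hcn4 had 27.2 and 24.2 (0.17). Of the acid-sensing channels, which open when the medium turns acid, 2 of 5 genes were above it. Asic1 had 49.8 and 46.5 (0.10), 49.2 and 44.5 (0.15) and 40.1 and 42.9 (-0.10) in the 3 probe sets above the median, and Asic4 had 33.8 and 38.9 (-0.20). The mitochondrial Vdac genes were all above the median and inside 1.2-fold. Vdac2 had 2032 on the OGD array and 1854 on the resting array (0.13), and Vdac3 had 539.1 and 533.4 (0.02). Vdac1 had 443.9 and 462.8 (-0.06) in one probe set and 180.1 and 173.5 (0.05) in the other.

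**Figure D4:**
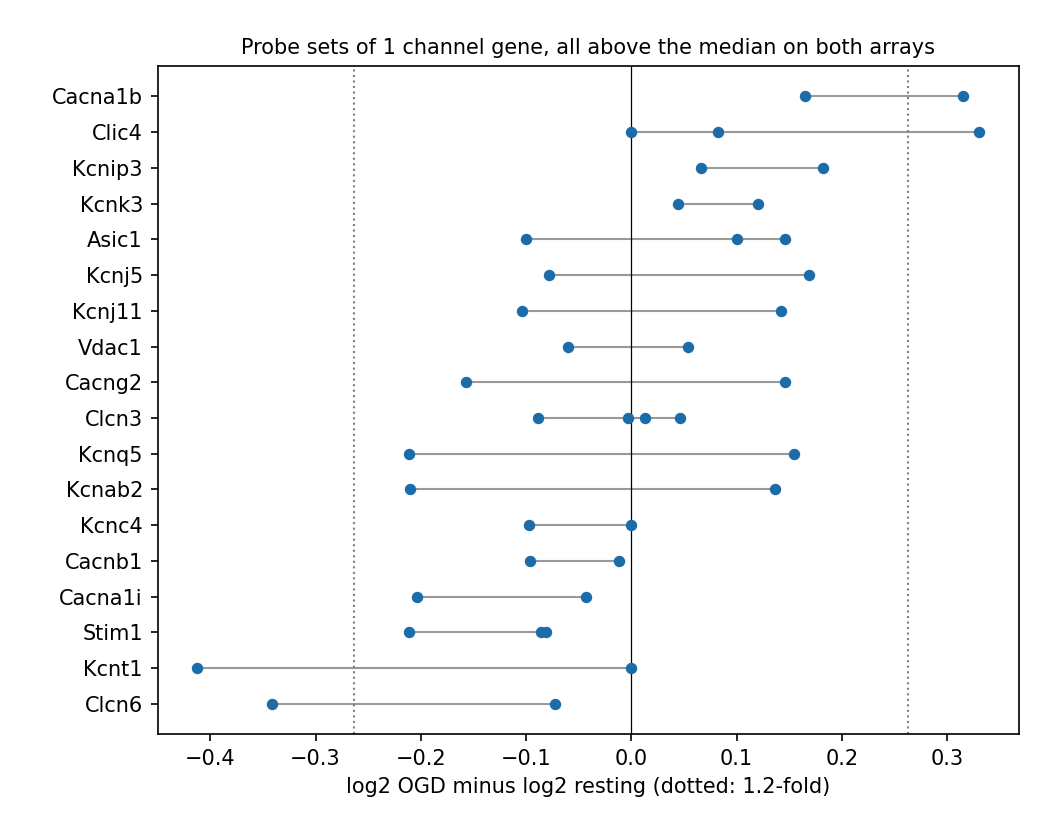
Log2 OGD minus log2 resting (horizontal axis) of each probe set of the 18 channel genes that had at least 2 above the median on both arrays, with a line joining probe sets of a gene. All probe sets were higher for Cacna1b, Kcnip3 and Kcnk3 and lower for Clcn6, Stim1, Cacna1i and Cacnb1, and the other 11 genes had probe sets on both sides of 0 or at 0.

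Probe sets of the same channel gene spread as widely as the differences themselves. Over the 18 genes with 41 probe sets above the median on both arrays, the pooled SD between probe sets of a gene was 0.15, beside an SD of 0.16 over all 105 differences. Over all genes of the array it was 0.15, from 1902 genes. All probe sets pointed the same way in 7 of the 18 genes, which is 38.9%, against 40.5% of the 1902. The widest disagreement was that of Kcnt1, whose probe sets were 0.41 apart, followed by Kcnq5, at 0.37, and Kcnab2, at 0.35.

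Over all genes of the array, dim probe sets also spread more than bright ones. Of the 105 channel probe sets above the median on both arrays, 65.7% had a mean intensity under 50, against 46.2% of all 11594 such probe sets. Over all genes the SD of the differences was 0.17 at a mean intensity under 50, 0.14 from 50 to 100 and 0.12 at 100 or more. For the channels it was 0.16 over 69 probe sets, 0.17 over 18 and 0.15 over 18, so the dimmest class was not the widest. The 8 channel probe sets with the same value on both arrays, 7.62% of 105 beside 6.30% of all, were those of Cacna1d, Clic4, Kcnc4, Kcnj3, Kcnj6, Kcnt1, Trpv2 and Trpv5. Why values are equal to all digits is not given in the sources used here, so an exact 0 may not show an unchanged level.

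Pumps, exchangers and other channels outside the module were described from a list of 71 genes, of which 60 had a probe set naming them alone and 44 were above the median on both arrays. No probe set of the list was past 1.5-fold. Of 50 above the median on both arrays, 29 were higher, 17 were lower and 4 were equal (29, 21 and 0 after loess scaling), with a median difference of 0.06 over those above it on at least 1 array, beside 0 for the module. Over all probe sets naming 1 gene and above the median on both arrays, 5024 were higher, 5840 were lower and 730 were equal. At 1.2-fold 2 of 56, or 3.57%, were higher and 0 were lower, beside the backgrounds of 3.89% and 4.21%. These 2 were a probe set of Panx1 and the dimmer probe set of Atp2a3. Panx1, a channel that releases ATP, had 31.8 on the OGD array and 26.0 on the resting array (log2 difference 0.30). The dimmer probe set of Atp2a3, a calcium pump of the endoplasmic reticulum, was above the median on the OGD array only. It had 25.02 there and 16.89 on the resting array, at least 1.27-fold higher. The brighter probe set of Atp2a3 had 70.6 on the OGD array and 59.2 on the resting array (0.26), inside 1.2-fold. Pkd1, a large membrane protein that partners a TRP-family channel, had 34.7 and 29.2 (0.25), and the plasma membrane calcium pump Atp2b4 had 33.9 and 39.7 (-0.23). The volume-regulated anion channel subunit Lrrc8a had 323.2 and 309.4 (0.06) and 61.8 and 55.6 (0.15), and Lrrc8d, of the same channel, had 173.4 and 157.3 (0.14). By group, 12 probe sets of intracellular calcium channels above the median on both arrays had 5 higher and 7 lower, against 13 higher and 7 lower of 21 for pumps and exchangers.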

How the data were processed

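Total RNA from microglial cells was extracted with TRIzol and labelled with biotin after oligo(dT)-primed cDNA synthesis, per the labels' protocols. The authors deposited intensities, on a linear scale (as the range of values shows), with 1 summary for each probe set on each array. How the authors corrected, summarised and normalized them, and on which genome build, is not given in the sources used here. A difference shared by most genes could not be seen if the arrays were scaled to each other. Probe sets were named by GEO's platform annotation: of 31099, 57 were controls, 20826 named 1 gene, 436 several and 9780 none. All 244 member probe sets kept their symbol in the RefSeq table (GRCr8).

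Groups came from the labels, 1 OGD and 1 resting array, which allow no test, and their number limits the precision. Values under the array median were set to it, log2 differences were taken per probe set, and counts were made at 1.5-fold and 1.2-fold. A probe set above the median on 1 array only gives a bound, computed against that median. Membership follows from the gene symbol alone, but the module, the lists and the settings were chosen with earlier results of these data known. Genes named were, in each family, up to 4 by absolute difference and up to 3 by brightness, 26 channels described in microglia, and up to 4 of the other ion transport genes. Those past 1.2-fold, on 1 array only, at equal values, Orai3, Lrrc8a, Lrrc8d and the markers were named outside this rule, after their values were seen. Calculations used Python 3.11.15, pandas 2.3.3, numpy 2.4.6 and statsmodels 0.14.6 and were tested on simulated arrays with known folds. Other settings tried were a floor at the 30th percentile, one at the 70th or no floor, controls in the median, both arrays above the floor, centring, quantile and loess scaling (span 0.3), a pseudocount at the 25th percentile, 1 or the mean probe set per gene, no shared-probe suffixes and updated symbols.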

Additional observations from a re-analysis of the deposited data

How the results depend on the processing

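No channel probe set passed 1.5-fold in either direction under any of the 13 alternatives, and the median difference of the channels stayed between 0 and 0.0125. The number above the floor on both arrays was 163 with a floor at the 30th percentile, 55 at the 70th, and 62 genes when the probe sets of each gene were averaged, against 105. At 1.2-fold the higher probe sets numbered 13 with the lower floor, 19 without a floor and 2 with the mean per gene, against 4. The lower ones numbered 14 with the lower floor, 3 with the higher floor, 21 without a floor and 2 with the mean per gene, against 7. Lower floors let more and dimmer probe sets in, and the channel shares without a floor were 7.79% higher and 8.61% lower, beside backgrounds of 6.29% and 6.17%. With the lower floor they were 7.65% and 8.24%, beside 5.27% and 5.21%. Centring, quantile and loess scaling turned the direction of 2 of the 105 probe sets, of Clcn3 and Kcna6, neither further from 0 than 0.0048. The split of higher, lower and equal was 61, 44 and 0 after centring and 55, 50 and 0 after quantile or loess scaling, against 51, 46 and 8. Among 58 named genes, 718 of 723 alternative values moved by less than the SD between probe sets of a gene, and 5 by more. These 5 were the means over the probe sets of Kcnq5, Kcnk2, Clic4, Kcne3 and Cacng2. For Kcnq5 the mean over its probe sets was -0.058, against 0.15 in its brightest, and Kcnk2 had 0.19 against -0.098. Clic4 had 0.13 against 0.33, Kcne3 had -0.049 against -0.23 and Cacng2 had -0.0056 against -0.16. The mean of Asic1 moved by less than that SD, but it turned the direction, to -0.0036 against 0.10. All these means took in probe sets under the median at their deposited values. Over only the 3 probe sets of Asic1 above the median on both arrays, the mean difference was 0.05. No paired analysis was possible because each group has 1 array. Leaving out a replicate was not possible for the same reason. Signal over background limits the 139 channel probe sets at or under the median on at least 1 array, where a difference could go unseen.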

Other observations

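One probe set named both Trpv1 and Trpv4 and so belonged to no single member. It had 19.1 on the OGD array, under the median, and 22.0 on the resting array. The probe sets naming Trpv1 alone, 3 in number, and Trpv4 alone were under the median on both arrays.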
